A study of Homo sapiens with 2 samples.

Results

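Distant alternative 3' splice sites are pairs of exon starts that share one 5' splice site and one exon end and lie more than 12 bases apart, so that the long form of the exon carries an extra stretch. The stretch was measured as the length of the long exon minus that of the short exon in the deposited splicing events of HEK293T, an embryonic kidney cell line of human origin. 1806 of 2868 alternative 3' splice site events (63%) met this rule, in 1245 of 1892 genes, and the remaining 1062 events had sites within 12 bases. Polyadenylated RNA had been sequenced from 1 library of cells without treatment (Ctrl) and 1 library of cells kept for 6 h in medium with 300 µg/mL amiloride (Amilo), a blocker of epithelial sodium channels, and both libraries fed a single list of events. The read columns of that list name no library, so Ctrl and Amilo were not compared, and neither the depth of a library nor a direction of change is given for any pair. The values below describe the pairs themselves: their length, sequence, reading frame, annotation and overlap with other event types. Intervals are 95% Wilson intervals, which cover counting error only, since pairs of one gene share sites and are not replicates.

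The end of an intron is recognised through a branch point, a run of pyrimidines bound by the large subunit of U2AF, and an AG dinucleotide bound by its small subunit. Splicing often takes the AG nearest downstream of the branch point, so AGs a few bases apart compete directly, while sites farther apart can each have a pyrimidine run and a branch point of their own. The choice adds or removes a piece of exon, which in coding sequence inserts amino acids, shifts the reading frame or brings in a stop codon.

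Pairs from splicing regulators and from genes with well known isoforms show what the class looks like. Each run below starts 20 bases before the upstream site and ends 3 bases into the short exon, in transcript direction on GRCh37 (hg19). The AG of both sites is in capitals, and each stretch overlaps an annotated coding segment. The examples were taken from the named lists, and SON, STAT3, U2AF1L4 and RBM39 were chosen after their values were seen.
PTBP1, chr19:805472-805515, plus strand, 21 bases apart: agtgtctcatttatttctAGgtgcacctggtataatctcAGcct
RBM39, chr20:34297176-34297216, minus strand, 18 bases apart: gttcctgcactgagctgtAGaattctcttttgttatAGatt
U2AF1L4, chr19:36236086-36236133, minus strand, 25 bases apart: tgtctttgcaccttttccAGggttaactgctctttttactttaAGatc
DYRK1A, chr21:38850463-38850512, plus strand, 27 bases apart: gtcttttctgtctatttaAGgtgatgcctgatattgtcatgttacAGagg
STAT3, chr17:40468867-40468939, minus strand, 50 bases apart: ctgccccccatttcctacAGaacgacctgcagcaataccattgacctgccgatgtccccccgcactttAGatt
SON, chr21:34948651-34948726, plus strand, 53 bases apart: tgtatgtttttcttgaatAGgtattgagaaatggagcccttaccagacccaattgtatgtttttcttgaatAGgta
HNRNPK, chr9:86584293-86584375, minus strand, 60 bases apart: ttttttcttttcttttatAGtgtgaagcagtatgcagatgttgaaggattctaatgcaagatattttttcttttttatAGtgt

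PTBP1 encodes the polypyrimidine tract binding protein, a repressor of many exons, and its pair sits at exon 9 of 15 of the canonical transcript. Its sites scored 10.32 bits upstream and 2.56 bits downstream, where a score is the sum over 20 intron and 3 exon bases of the log2 ratio between base frequencies at annotated sites and equal frequencies. RBM39, a splicing factor related to the large U2AF subunit, had the opposite order, with 2.77 bits upstream and 10.42 bits downstream. U2AF1L4, a relative of the small U2AF subunit, had close scores of 11.50 and 10.19 bits. DYRK1A, a kinase that phosphorylates splicing factors, had 10.36 bits upstream and 6.64 bits downstream, although its canonical transcript starts exon 4 of 12 at the downstream site. The STAT3 pair at exon 23 of 24 separates the alpha and beta isoforms of this transcription factor, and its 50-base stretch shifts the frame. In SON, a cofactor of splicing at weak sites, the 23 scored bases were identical at both sites, at 9.63 bits each. HNRNPK, a poly(C) binding protein, had strong sites on both sides of its 60-base stretch, with 16.08 bits upstream and 14.34 bits downstream, and a stop codon in frame inside the stretch of this last exon.

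At the other end of the length range the sites lie kilobases apart, and the 23 scored bases of each site are shown for the longest pair.
QKI upstream, chr6:163985679-163985701, plus strand: ctgatgccttttttttatAGagt
QKI downstream, chr6:163991706-163991728, plus strand: ttttgtttctaaccacccAGccg
The longest stretch was 6027 bases in QKI, an RNA-binding protein whose isoforms differ at the C terminus, and its sites scored 11.39 bits upstream and 7.55 bits downstream. The noncoding RNA HCG18 held a stretch of 5470 bases and the vesicle transport gene SEC22C one of 4791 bases. In these 3 genes the pair opens the last exon of the canonical transcript. QKI and SEC22C had a stop codon in frame within the stretch, so each site leads to its own end of the protein. The upstream score was higher in QKI and HCG18 and lower in SEC22C.

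Across all 1806 pairs the stretch had a median of 66 bases, with quartiles of 34 and 160 bases, and 1 in 10 was longer than 557 bases. 108 pairs were more than 1000 bases apart. The rule falls within a continuous range: 35 events lay at 12 bases, just outside it, and 11 at 13 bases, just inside. Distances peaked at multiples of 3, with 49 events at 15 bases, 41 at 18 and 49 at 21, against 12 at 14, 11 at 16 and 12 at 17. The near class was dominated by a single distance, 3 bases, with 718 of its 1062 events.

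The 1806 events held 1562 distinct pairs of sites, because 211 pairs were listed with more than 1 upstream exon, up to 7 times. These pairs used 2862 sites, of which 218 took part in more than 1 pair and 61 were the upstream site of one pair and the downstream site of another. Most genes had a single pair (1055 genes), 121 had 2 and 69 had 3 or more. 152 of the 1245 genes also had a pair within 12 bases.

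The genes with the most pairs held arrays of sites in front of 1 or 2 exons. DDIT3, which encodes the stress transcription factor CHOP, had 10 pairs, every combination of 5 sites within 171 bases, in stretches annotated as 5' untranslated or coding. The 23 scored bases of these sites are shown from the most upstream to the most downstream, all on the minus strand.
DDIT3, chr12:57911376-57911398: cttcatctctgccactgtAGcac
DDIT3, chr12:57911323-57911345: cagatgtggctgtattccAGtac
DDIT3, chr12:57911300-57911322: aactttacctacaaaaacAGgca
DDIT3, chr12:57911219-57911241: cactccccattatcctgcAGatg
DDIT3, chr12:57911205-57911227: ctgcagatgtgcttttccAGact
Their scores were 6.71, 2.82, 2.56, 8.89 and 6.28 bits in that order, and the canonical transcript uses the fourth, the highest of the 5. PLAGL1, an imprinted zinc finger gene, had 9 pairs from 7 sites in front of 2 exons of its 5' untranslated region, with scores from -1.58 to 9.40 bits. MUTYH, a DNA glycosylase that removes adenine opposite oxidised guanine, had 8 distant pairs and 2 near ones from 5 sites at exon 3. In MUTYH the most downstream site scored 6.69 bits, and the other 4 lay between -0.63 and 1.89 bits. The site that its canonical transcript uses was among these 4, at 1.68 bits. The membrane protein gene TMEM91 had 8 distant pairs from 5 sites, and SERF2 had 6 from 4, the widest of them 798 bases apart.

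QKI held further distant pairs around its longest one. A middle site, 1279 bases after the first and 4748 bases before the last, scored 14.08 bits, the highest of the 3 that open a last exon. The canonical transcript uses the last of them, which scored lowest at 7.55 bits. Each of the 3 combinations had a stop codon in frame. Farther upstream, at exon 6 of 8, a pair 24 bases apart scored 9.14 and 13.08 bits, kept the frame and had no stop. In SERF2 the outermost sites were nearly equal, at 12.92 and 12.82 bits, and the canonical site between them scored 8.56. In TMEM91 the most upstream site scored 7.25 bits and the canonical one, 154 bases on, 6.11.

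The frame-keeping share of near pairs rested on a single distance. The stretch was a multiple of 3 in 47.2% (44.9 to 49.5%, 852 of 1806) of distant pairs, against 78.9% (76.4 to 81.3%, 838 of 1062) of near pairs. 718 of the near events lay at 3 bases, and all of them keep the frame. Leaving them out, a choice made after seeing the data, could only lower the near share, to 34.9% (30 to 40.1%, 120 of 344). No distance was left out of the distant class, so this value is not set against the distant share. Distant alternative 5' splice sites, chosen by the same length, stood at 43.6% (41.5 to 45.7%, 961 of 2205). Within the distant class the share was lower in longer pairs, from 58.8% (53.8 to 63.6%, 224 of 381) at 13 to 30 bases to 43.4% (39 to 47.8%, 209 of 482) at 61 to 150 bases, 44.3% (38.6 to 50.1%, 124 of 280) at 151 to 500 bases and 34.7% (28.4 to 41.6%, 68 of 196) above 500 bases. It was 66.2% (57.9 to 73.6%) at 13 to 18 bases, the shortest distant pairs.

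The share also differed by place in the transcript. Where the stretch overlapped an annotated coding segment, 51.2% (48.6 to 53.8%, 732 of 1429) kept the frame. In 5' untranslated regions the share was 29.7% (23.9 to 36.2%, 62 of 209) and in exons of noncoding transcripts 29% (20.8 to 38.9%, 27 of 93). The few stretches in 3' untranslated regions stood at 51.2% (36.5 to 65.7%, 21 of 41), the same as coding stretches but with a wide interval. At 13 to 30 bases the shares were 66% (60.4 to 71.1%) in coding stretches and 33.3% (24.2 to 43.9%) in the others. Above 500 bases the coding share was 34.9% (28.1 to 42.5%) and the other share 33.3% (19.2 to 51.2%), so the gap between coding and other stretches seen in short pairs was not seen in the longest ones. There 84.7% of stretches overlapped a coding segment, yet 93.2% of pairs with a known frame held a stop. A coding stretch of this length is thus often coding in part only.

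Most stretches overlapped coding sequence, where any overlap counted, so a stretch called coding can be coding in part only. 79.1% (77.2 to 80.9%, 1429 of 1806) overlapped a coding segment of an annotated transcript, 11.6% lay in 5' untranslated regions only, 2.27% in 3' untranslated regions only, 5.15% in exons of noncoding transcripts and 1.27% in no annotated exon. 5' untranslated stretches made up 15.5% of pairs at 13 to 30 bases and 1.53% above 500 bases. Both sites were exon starts of annotated transcripts in 92% (90.7 to 93.2%, 1662 of 1806) of pairs. Of the other pairs, 97 had only the upstream site annotated, 34 only the downstream site and 13 neither.

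Stop codons separated short from long stretches. In 1297 pairs an annotated coding transcript gave the frame at the downstream site, and reading the long form in that frame met a stop codon in 34.5% (32 to 37.2%, 448 of 1297). In 121 of these pairs an annotated intron lies inside the stretch, and the frame taken need not be that of the long form. Among near pairs the share was 1.17% (0.616 to 2.21%). It rose through every length class, from 7.24% (4.78 to 10.8%) at 13 to 30 bases to 19.8% at 31 to 60, 28.5% at 61 to 150, 70.9% at 151 to 500 and 93.2% (87.6 to 96.4%) above 500 bases. A longer stretch has more codons in which a stop can fall, and no expected share was computed. Stops were found in 49% of pairs that shift the frame and 21.3% of pairs that keep it.

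Stops were tied to the annotation itself, since a stretch annotated as coding in this frame can hardly hold one. Where the whole stretch was so annotated, 1 of 784 had a stop, against 87.1% (84 to 89.8%, 447 of 513) of the others. The split by canonical transcript is not independent of this annotation. The canonical transcript is the one the annotation marks as representative of the gene. Where the canonical exon starts at the upstream site and so contains the stretch, 20.9% (17.9 to 24.4%, 128 of 611) had a stop. Where it starts downstream and the stretch is an addition, 40.6% (36.5 to 44.9%, 215 of 529) did. The gap held within length: at 31 to 60 bases the shares were 4.82% and 33.6%, at 61 to 150 bases 12.4% and 48.5%, and at 151 to 500 bases 39.5% and 91.7%. Above 500 bases both were high, at 90.1% and 96.4%. Frame-keeping followed the same split, with 53% (49.7 to 56.3%, 467 of 881) for canonical upstream sites and 43.2% (39.4 to 47.1%, 277 of 641) for canonical downstream sites.

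Many of the stops lay in pairs whose upstream site opens the last exon of some coding transcript. Other transcripts can have a further exon after that site. It opened such a last exon in 38 of 64 pairs whose canonical transcript uses both sites. Whether an exon junction follows the stop was not measured. The upstream site opened the last exon of a complete coding transcript in 58.5% (53.9 to 63%, 262 of 448) of pairs with a stop and in 15.7% (13.4 to 18.3%, 133 of 849) of pairs without one. Over all pairs of a length class, with or without a known frame, the share that opened a last exon went from 12.6% at 13 to 30 bases to 45.4% at 151 to 500 bases and 77.6% above 500 bases. SRSF10, a member of the SR protein family of splicing regulators, is an example chosen after its values were seen: its 3 sites, which all open a last exon, gave stretches of 233, 3483 and 3716 bases, each with a stop in frame.

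Some long stretches contain an intron of their own. In 9.86% (8.57 to 11.3%, 178 of 1806) of pairs an annotated transcript used both sites, so that the long form keeps as exon what that transcript removes as intron. No pair below 61 bases was of this kind, against 26.8% of all pairs at 151 to 500 bases and 45.9% of all pairs above 500 bases. The downstream site ended a listed retained intron in 74.2% (67.3 to 80%, 132 of 178) of these pairs, and in 3.13% (2.39 to 4.10%, 51 of 1628) of the others. A pair of this kind has the exon structure of a retained intron, so the match is in part built in. Only the 3' splice site of the retained intron was matched. The canonical transcript used both sites in 64 pairs, and the downstream site of 61 of them ended a listed retained intron. Read in the frame of the downstream site, a stop codon was met in 88.4% (81.5 to 93%, 107 of 121) of pairs with an intron inside. It was met in 29% (26.5 to 31.7%, 341 of 1176) of pairs without one. A transcript that uses both sites reaches the downstream site through an exon inside the stretch. Its frame there need not be the frame in which the long form is read, so the former share is uncertain. Pairs with an intron inside were also much longer, with a median stretch of 514 against 59 bases, and stops rise with length. SF1, the branch point binding protein, chosen after its values were seen, and HNRNPM, which binds G and U rich RNA, both held such a pair. That of SF1 spans 637 bases with sites at 7.53 and -0.10 bits, and that of HNRNPM 156 bases at 10.18 and 6.39 bits.

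The canonical transcript used the upstream site in 48.8% (46.5 to 51.1%, 881 of 1806) of distant pairs, the downstream site in 35.5% (33.3 to 37.7%, 641 of 1806), both in 3.54% and neither in 12.2%. Near pairs used the upstream site in 70% (67.1 to 72.6%, 743 of 1062). At 13 to 30 bases the downstream site was canonical more often than the upstream one, 48% (43.1 to 53%) against 41.2% (36.4 to 46.2%), with intervals that overlap. Within this class the downstream site led at 19 to 24 bases, 52.8% against 33.3%, and the upstream site at 25 to 30 bases, 54.7% against 37.2%. From 31 bases on the upstream site led in every class, with 51.2% against 38.5% at 31 to 60 bases, 54.4% against 33.2% at 61 to 150 bases, 41.1% against 29.6% at 151 to 500 bases and 55.1% against 17.9% above 500 bases.

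Both sites carried AG in 99.4% (98.9 to 99.7%, 1795 of 1806) of distant pairs, and the shared 5' splice site began with GT in 98.9%. The median score was 7.89 bits upstream and 7.09 bits downstream, both below the 9.13 bits of 300289 annotated sites with AG. The upstream site scored higher in 56.5% (54.2 to 58.8%, 1021 of 1806) of pairs, and the median difference was 0.92 bits with quartiles of -2.28 and 4.16. The order varied with distance. The upstream site was the stronger in 31.6% (24.4 to 39.8%) at 13 to 18 bases, 37.1% (30 to 44.8%) at 19 to 24, 52.3% (41.9 to 62.6%) at 25 to 30 and 61.7% (57.2 to 66%) at 31 to 60 bases. Above 500 bases it was 54.6% (47.6 to 61.4%), an interval that includes 50%. Over the whole class of 13 to 30 bases the median scores were 5.67 upstream and 7.42 downstream, in the class of 151 to 500 bases 8.90 and 7.11, and above 500 bases 9.38 and 8.87. Up to 18 bases the 20 intron bases scored at the downstream site include the AG of the upstream site, so the scores of such pairs are not independent. In part of the class of 19 to 24 bases the 2 scored runs still share bases, so scores there are not fully independent either.

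Over all lengths the canonical site was more often the stronger of its pair. Among 1522 pairs with exactly 1 canonical site, that site scored higher in 62.9% (60.4 to 65.3%), with medians of 8.08 bits against 6.79 for the other site. The share was 67.6% at 13 to 30 bases and 53.1% (45 to 61.1%) above 500 bases, where the interval includes 50%. Split by side, the upstream site scored higher in 67.8% (64.6 to 70.8%, 597 of 881) where it was canonical and in 43.8% (40 to 47.7%, 281 of 641) where the downstream site was. Canonical downstream sites led with an interval that excludes 50% at 13 to 30 bases only, where the upstream site scored higher in 22.4% (17 to 29%). The upstream site scored higher in 47.2% (40.1 to 54.5%) at 31 to 60 bases, 53.8% (46 to 61.3%) at 61 to 150 bases, 59% (48.3 to 69%) at 151 to 500 bases and 57.1% (40.9 to 72%) above 500 bases, with intervals that include 50%. Canonical upstream sites scored higher in 56.1% (48.2 to 63.6%) at 13 to 30 bases and 56.5% (47.1 to 65.4%) above 500 bases, intervals that include 50%. In the classes between, they did so in 74.1%, 69.5% and 77.4%.

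On average over positions, downstream sites of well separated pairs had fewer pyrimidines and more AGs than annotated sites. Over 587 distinct pairs more than 100 bases apart, pyrimidines made up 74.6% of positions -20 to -4 at upstream sites, 71.7% at downstream sites and 74% at annotated sites. Farther away, at positions -60 to -41, the shares were 51.4%, 50.7% and 51.4%. A further AG began at a position from -20 to -13 in 1.64% of upstream, 2.47% of downstream and 1.41% of annotated sites, averaged over positions. The base before the AG differed between the 2 sides in distant and in near pairs. Distant pairs had CAG at 64.7% of upstream and 74.1% (72.1 to 76.1%) of downstream sites, and TAG at 26% and 15.2% (13.6 to 16.9%). Annotated sites stood at 63.4% CAG and 27.9% TAG, near the upstream values of distant pairs. The gap was larger in near pairs, with CAG at 50.6% (47.6 to 53.6%) of upstream and 71.4% (68.6 to 74%) of downstream sites. Among distant pairs the gap varied with length, with no steady trend. CAG stood at 60.6% upstream and 74.5% downstream at 13 to 30 bases, and at 64.7% and 80.9% at 61 to 150 bases. The intervals overlapped at 31 to 60 bases, with 66.8% and 71.5%, and at 151 to 500 bases, with 66.8% and 70.4%. They also overlapped above 500 bases, with 64.8% (57.9 to 71.1%) upstream and 68.4% (61.6 to 74.5%) downstream.

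Further AGs were common inside distant stretches and came with length. At least 1 further AG lay between the sites in 77.9% (75.9 to 79.8%, 1407 of 1806), with a median of 3 per stretch. No expected share was computed, and use of these AGs was not measured. At 13 to 30 bases 26.8% had such an AG, at 31 to 60 bases 77.5%, and above 150 bases every pair did, with medians of 17 at 151 to 500 bases and 77.5 above. Near pairs had one in 1.51%, but the 718 of 1062 near events at 3 bases are too short to hold one. Where an AG was found within 100 bases before the site, it lay a median of 27 bases away at upstream and 22 bases at downstream sites. In short pairs the AG of the upstream site itself bounds the downstream distance. At 151 to 500 bases, where that AG lies beyond the 100 bases searched, the medians were 29 bases upstream and 25 bases downstream. Above 500 bases the order was the other way, 29 and 31 bases.

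The pairs with the most unequal scores, with AG and annotation at both sites, are shown by 1 example from each side. Both stretches overlap a coding segment.
MFSD2A, chr1:40424314-40424375, plus strand, 39 bases apart: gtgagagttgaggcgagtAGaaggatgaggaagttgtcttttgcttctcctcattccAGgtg
TBC1D16, chr17:77923620-77923684, minus strand, 42 bases apart: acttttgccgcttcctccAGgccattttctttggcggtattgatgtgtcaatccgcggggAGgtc
In MFSD2A, a lipid transporter of the blood-brain barrier, the upstream AG has a purine-rich run before it and the sites scored -6.15 and 13.67 bits. RPP21, a protein of ribonuclease P, had -7.49 and 9.45 bits over 24 bases. The reductase gene NDOR1 had -5.55 and 11.21, the ubiquitin ligase scaffold CUL4A -6.40 and 10.34, and CCDC84 -8.22 and 7.84. The downstream site was canonical in all 5 genes, with stretches of 19 to 39 bases. On the other side, TBC1D16, a regulator of Rab GTPases, had 10.68 bits upstream and -3.96 downstream. BAIAP3 had the widest gap of this side, 8.90 against -10.14 bits over 84 bases. EPHX2, the soluble epoxide hydrolase, had 12.13 and -6.13, the mitochondrial fission factor MFF 12.91 and -3.95, and the peroxidase GPX8 11.10 and -3.54. Here the upstream site was canonical in all 5 genes.

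Splicing regulators had distant pairs about as often as other genes with an event. Of 65 listed regulators, 19 had an alternative 3' splice site event and 13 a distant pair, 26 events and 20 distinct pairs in all, beside 1245 of 1892 genes overall. They made up 1.44% of distant and 1.69% of near events. The stretches longer than 1000 bases among them came from CELF1, QKI, SRSF10 and PTBP3, and the median over all 26 events, 233 bases against 66 in the whole class, is an SRSF10 stretch. In all, 14 of 26 kept the frame, against 47.2% in the whole class. A stop was held by 10 of 21 with a known frame, against 34.5% in the whole class. Most of these events with a stop were SRSF10 pairs listed with 2 upstream exons, and the others lay in QKI and HNRNPK. CELF1 had 3 sites in its 3' untranslated region with stretches of 1213, 1998 and 3211 bases, the most downstream at 14.77 bits. Its relative CELF2 had a pair 18 bases apart (6.02 and 5.16 bits) at exon 11 of 14, and the muscleblind gene MBNL3 one 105 bases apart (9.98 and 7.64 bits) at exon 6 of 9. PTBP2, the neuronal relative of PTBP1, had a pair 15 bases apart (5.64 and 6.57 bits) at exon 9 of 14. These 3 pairs were multiples of 3.

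The other lists held fewer distant pairs in number. Among all genes with an event, 1245 of 1892 had a distant pair. Of 9 splicing kinases, 4 had an event and 2, DYRK1A and SRPK1, a distant pair, 0.111% of distant and 0.188% of near events. Of 64 core spliceosome and 3' splice site recognition genes, 10 had an event and 7 a distant pair: EFTUD2, SF1, SNRNP70, SNRPB, SNRPD1, U2AF1L4 and USP39, with 4 of 10 events in multiples of 3. They made up 0.554% of distant and 0.377% of near events, and DNA repair genes 0.886% and 1.13%. Of 80 DNA repair genes, 14 had an event and 7 a distant pair, 16 events, 8 of them in MUTYH. The median stretch was 65.5 bases in DNA repair genes and 76.5 in the core spliceosome genes. Of 13 genes discussed in the study, 2 had an event and PTBP1 alone a distant pair.

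Other event types met the same exons. The long or the short exon was also listed as a skipped exon in 46.9% (44.6 to 49.2%, 847 of 1806) of distant pairs and 52.4% (49.4 to 55.4%, 557 of 1062) of near pairs. By length the distant share fell from 60.6% at 13 to 30 bases to 6.63% above 500 bases, while last exons, which have no exon after them, became more common. The long exon had a median of 219 bases and the short exon 142 bases. The stretches had a median GC share of 50.1%, with no steady trend by length: 50% at 13 to 30 bases, 48.4% at 31 to 60, 53.5% at 61 to 150, 53.9% at 151 to 500 and 45.1% above 500 bases. The intron before the upstream site had a median of 1291 bases, against 1777 in near pairs.

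The deposited effective lengths show how reads would be credited in such pairs. The short form had an effective length of 125 bases in every distant pair, and the long form had that length plus the stretch in 1806 of 1806. The ratio of long to short effective length was 1.53 at the median and reached 49.2 in QKI, against a median of 1.02 in near pairs. In 551 pairs the stretch alone was longer than the effective length of the short form, so reads inside the stretch, including those of an intron kept there, can count for the long form.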

How the data were processed

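Polyadenylated RNA of HEK293T was sequenced in 2 libraries, Ctrl and Amilo, 1 for each condition. The submitters' processing notes name STAR 2.5.1 and the build hg19 (GRCh37), and the authors deposited event tables made with rMATS, whose version is not given in the sources used here. The deposited values used here are exon positions and effective lengths in bases. In 5 tables, 30 columns of reads and inclusion levels for each library name no sample and were not used in any step. 15 further columns hold the authors' own p-values, false discovery rates and inclusion level differences between the libraries and were not used. The table of mutually exclusive exons was not used here. Depth per library is not given here, and no test between libraries was run.

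The stretch was computed from the exon positions, and members had more than 12 bases. Sequences were read from GRCh37, and transcripts, frames and canonical tags from GENCODE release 44 lifted to GRCh37. A site was annotated where a transcript starts a later exon there. Scores used base frequencies at annotated sites with AG, members included, with a pseudocount of 0.5. Frames came from the first coding transcript by identifier at the downstream site, and a stop counted with at least 1 base in the stretch. Symbols or synonyms matched the annotation at a site in 1782 of 1806 members. Named genes were 3 of the 5 longest stretches, the 5 genes with the most pairs, the 5 highest and 5 lowest score differences, the first 10 members among splicing regulators and kinases, and genes discussed in the study. Lists were splicing regulators, splicing kinases, core spliceosome and 3' splice site recognition, DNA repair, and genes discussed in the study. Members and lists were chosen with earlier results of these data known. Alternatives were distinct pairs, a minimum of 30 bases, 1 member per gene, other score settings, protein-coding transcripts, 1 frame only and long exons only. Functions were tested on simulated data. Python 3.11.15, numpy 2.4.6, pandas 2.3.3, pysam 0.24.0 and matplotlib 3.10.9 were used.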

Additional observations from a re-analysis of the deposited data

How the results depend on the processing

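Of 38 alternative values, 28 stayed within the interval of the main share or, for the number of pairs, within 1.5 times, and 10 did not. Counting each pair of sites once moved no share out of its interval. With a stretch over 30 bases, the frame-keeping share was 44.1%, AG at both sites 99.8%, the share with a stronger upstream site 61.3%, the in-frame stop share 42.4%, the share with a further AG 91.6% and the share listed as skipped exons 43.2%. This setting leaves out the pairs of 13 to 30 bases. With 1 member per gene the share with a further AG was 75.2%. Over protein-coding transcripts only, both sites were annotated in 74.3%. Among alternatives chosen after seeing the data, pairs of 13 to 30 bases alone had a stronger upstream site in 38.6%, a turn to the other side of 50%, and without pairs that hold an annotated intron the in-frame stop share was 29%. With 1 library per condition and no replicate numbers in the columns, libraries could not be paired, and no paired analysis was run. The read comparison of the 2 libraries was not run. The read columns were not used, so how often a site was used is not given, and the annotation-based shares cannot tell usage in HEK293T from usage elsewhere.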

Other observations

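11 distant pairs in 7 genes lacked AG at 1 or both sites: DMBX1, WARS2, DGCR2, APBB3, BAG6, SRPK1 and FAM156A, chosen after their values were seen. The 3 FAM156A events, 109 bases apart, have CT at the start of the intron and AC at both ends on the listed plus strand, which is the reverse complement of GT and AG on the other strand, and neither site is annotated. Which strand the reads came from was not tested. SRPK1, a kinase of SR proteins, had an annotated upstream site that scored -9.86 bits and a canonical downstream site that scored 10.45 bits, 28 bases apart.

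4 events in 3 genes, ACSF3, GPR35 and SON, had equal scores at both sites (difference under 1e-09 bits). The SON pair opens the last exon of the canonical transcript, and its 53-base stretch is not a multiple of 3.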
